A study of Mus musculus with 10 samples.

Results

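Tumours from mice given fish oil were compared with tumours from mice given DHA oil, gene by gene, in 7 of the 10 libraries of the study: the 4 fish oil libraries, replicates 1 to 4, and the 3 DHA oil libraries, replicates 1 to 3. Libraries were chosen by sample title and treatment label, and all 33538 human genes of the count table were read. The table holds Ensembl identifiers alone, and the gene names come from general knowledge of those identifiers rather than from a reference table. All 10 tumours were grafts of DAOY, an established cell line from a human medulloblastoma (a tumour of the cerebellum), placed on the flank of female nude mice and collected after 30 days of treatment. Nude mice lack T cells made in the thymus but keep macrophages, natural killer cells, blood vessels and stroma of their own. The mice received oil rich in docosahexaenoic acid (DHA), or the oil labelled Fish-oil, or ordinary chow (3 libraries, used here only to share the estimate of spread and to place the levels). The design names an arm given DHA together with eicosapentaenoic acid (EPA) but does not tie it to a label. Fish oil is read here as that arm, by inference. The comparison is between the oils as given. It cannot isolate EPA, since the amount of DHA in each oil is not in the labels. Doses, mouse ages and the mouse behind each library are not in the labels, and the p-values below speak only for the spread among the samples at hand. DAOY is 1 line, so nothing here speaks for other medulloblastomas.

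DHA and EPA are long-chain omega-3 fatty acids. Cells build them into membranes, burn them, or store the surplus as triglyceride in lipid droplets, whose surface proteins (perilipins, HILPDA) protect the droplet from lipases. They compete with arachidonic acid, the omega-6 precursor of prostaglandins, and are known to dampen the SREBP factors that drive lipid synthesis, to activate PPAR factors that drive fat burning, and to modulate NF-kB, the factor behind much of the inflammatory response. Interferon gamma, a cytokine of T cells and natural killer cells, makes tumour cells express guanylate-binding proteins and, through the regulator CIITA, the class II antigen presentation genes.

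Total counts ran from 6187116 to 9588388 in fish oil and from 8428137 to 10035702 in DHA oil. Levels are given in CPM (counts divided by the effective size of their library) and compare libraries for 1 gene, not genes with each other, since they are not per length. Fish oil replicate 4 stood apart before any comparison was made. It lay at 52.88 on the first principal component, which held 26.42% of the variance, with fish oil replicate 2 at 21.36 and the other 8 libraries between -19.06 and 1.708. The 13 protein genes of the mitochondrial genome took 1.75% of its counts (exact 95% binomial interval 1.741% to 1.758%, counting error only), against 4.967% to 5.182% in the other fish oil libraries and 5.373% to 6.699% in DHA oil. Results are therefore given with and without it. Neural and hedgehog pathway genes of the line were read in every library, for example ZIC1, a transcription factor of cerebellar progenitors, at 31.4 to 57.0 CPM in the 7 oil libraries, while ATOH1, the factor of the granule cell lineage, was at 0 in all 7.

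Of 16013 genes with enough counts to test, edgeR's quasi-likelihood F test called 0 different between the oils at an adjusted p under 0.05 (0% called), with a smallest adjusted p of 0.875. Before adjustment, 432 genes were higher in fish oil at p under 0.05 (2.7%) and 343 lower (2.14%), together 4.84%. At any p, 52.1% of the genes tested were higher in fish oil, and 50.1% without fish oil replicate 4. These shares are the background for the counts in each gene list below. DESeq2 called 1 gene, HILPDA (adjusted p = 0.0307), and limma-voom called 0. The 4 fish oil libraries lay entirely above the 3 DHA oil libraries for 460 genes (2.87%) and entirely below for 333 (2.08%), together 4.95%. Without fish oil replicate 4, 0 of 15867 genes were called (0%; smallest adjusted p 0.864), with 390 higher (2.46%) and 245 lower (1.54%) at an unadjusted p under 0.05, together 4%. The remaining 3 fish oil libraries then lay entirely above DHA oil for 4.78% of genes and entirely below for 3.44%, together 8.22%. Of the 425 higher genes tested in both fits, 246 were still higher at that level without replicate 4, and of the 341 lower genes, 163 were still lower. Leaving out fish oil replicate 1 or 3 instead raised the genes at an unadjusted p under 0.05 from 775 to 1758 and 1266, with 0 called. Without fish oil replicates 2 and 4 together, 294 of 16052 genes were higher and 293 lower at that level, with 0 called. Every gene described next therefore failed adjustment over all genes (adjusted p 0.875 or more with all libraries), and a 95% interval that leaves out 0 corresponds to an unadjusted p under 0.05. Fold changes are fish oil over DHA oil on the log2 scale, with these intervals in brackets.

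The genes with the smallest p in the higher direction included 2 proteins of the lipid droplet surface. HILPDA (ENSG00000135245), the hypoxia-inducible droplet protein that blocks the lipase ATGL, stood at 84.7, 137, 130 and 144 CPM in fish oil replicates 1 to 4 and at 62.8, 57.7 and 62.1 CPM in DHA oil replicates 1 to 3. All 4 fish oil tumours were above all 3 DHA oil tumours, whose levels were nearly equal, while chow tumours (88.4, 56.9 and 108 CPM) spanned both. HILPDA was 2.04-fold higher in fish oil, a log2 fold change of 1.03 (0.59 to 1.46), and 0.95 without replicate 4 (0.50 to 1.39). PLIN2 (ENSG00000147872), the perilipin that coats droplets in most cells, stood at 31.5, 51.8, 33.2 and 33.7 CPM in fish oil and at 16.2, 19.1 and 21.7 CPM in DHA oil. Fish oil replicate 2 was the highest, and the other 3 fish oil tumours still lay above every DHA oil tumour. The difference was 1.98-fold, a log2 fold change of 0.99 (0.45 to 1.53), and 1.04 without replicate 4 (0.46 to 1.61).

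DEPP1 (ENSG00000165507), a target of the FOXO factors that is induced by fasting, had the second smallest p among named higher genes, at 22.7, 39.2, 32.4 and 19.9 CPM in fish oil and 9.93, 7.14 and 13.6 CPM in DHA oil. The groups did not overlap, and the chow tumours (22.6, 10.9 and 32.6 CPM) again spread over both. Its log2 fold change was 1.49 (0.77 to 2.21), a 2.81-fold difference, and 1.63 without replicate 4 (0.91 to 2.35). In chow tumours HILPDA, PLIN2 and DEPP1 were all highest in replicate 3 and lowest in replicate 2.

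Other droplet genes did not lean with HILPDA and PLIN2. Of 27 genes listed for lipid droplets and triglyceride turnover, 24 were tested: 10 were higher and 14 lower in fish oil, 2 higher (HILPDA and PLIN2) and 1 lower at p under 0.05, with a median log2 fold change of -0.03 against 0.01 over all genes tested. The lower one was PLIN5, the perilipin of cells that burn much fat, at 3.20, 2.06, 1.69 and 1.13 CPM in fish oil and 3.43, 2.84 and 3.37 CPM in DHA oil, with -0.69 (-1.38 to -0.004), and -0.49 (-1.15 to 0.17) without replicate 4. DGAT1, which makes triglyceride, had a log2 fold change of -0.23 (-0.57 to 0.11).

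**Figure D1:**
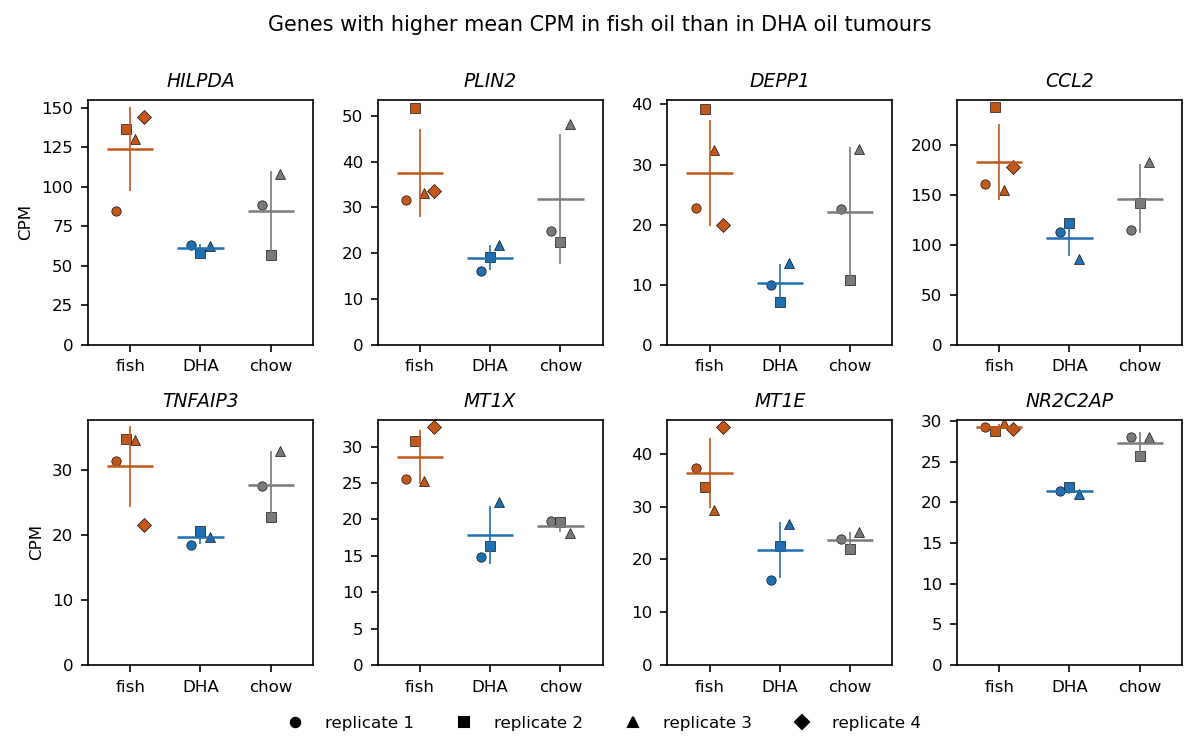
Level in CPM (vertical axis, from 0) of 8 genes with small p in the higher direction, in each library of the 3 diets; marker shape gives the replicate, the line is the group mean and the bar 1 SD. For HILPDA, PLIN2, DEPP1, CCL2, TNFAIP3, MT1X, MT1E and NR2C2AP every fish oil library lies above every DHA oil library, and except for NR2C2AP, where they fall between, the chow libraries overlap 1 or both groups.

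HILPDA belongs also to the hypoxia response, and that list leaned the same way. Of its 37 genes 34 were higher in fish oil, 5 of them at p under 0.05 (2.7% of all genes) and 0 lower, with a median log2 fold change of 0.27. The 5 were HILPDA, EGLN3, an oxygen-sensing prolyl hydroxylase, the glucose transporters SLC2A1 and SLC2A3, and MXI1, an antagonist of MYC. SLC2A1 (ENSG00000117394) stood at 290, 374, 360 and 347 CPM in fish oil and 238, 194 and 293 CPM in DHA oil, a log2 fold change of 0.51 (0.08 to 0.93). Fish oil replicate 1 fell just under DHA oil replicate 3 for this gene, so the groups overlapped. EGLN3 differed by 0.59 (0.15 to 1.03) and SLC2A3 by 0.52 (0.10 to 0.94). For the classical markers the intervals spanned 0: VEGFA, the vessel growth factor, differed by 0.31 (-0.29 to 0.90), the carbonic anhydrase CA9 by 0.34 (-0.21 to 0.88) and adrenomedullin, ADM, by 0.55 (-0.05 to 1.15). Single tumours moved them, from 0.091 (without fish oil replicate 3) to 0.54 for VEGFA, from 0.164 (without DHA oil replicate 2) to 0.66 for CA9 and from 0.34 (without DHA oil replicate 1) to 0.879 for ADM, each highest with DHA oil replicate 3 left out. The groups did not overlap for 3 of the 37, all higher in fish oil, where 2.87% of all genes lay entirely higher. The mean log2 CPM of the list overlapped, at 6.62, 7.08, 7.11 and 6.94 in fish oil and 6.67, 6.44 and 6.87 in DHA oil. The median was 0.29 without replicate 4, 0.22 without replicates 2 and 4, and 0.16 without DHA oil replicate 2. Glycolysis genes outside that list had 16 of 19 higher, 0 at p under 0.05 in either direction and a median of 0.12, with HK2, the first enzyme of the pathway, at 0.46 (-0.06 to 0.98). In the list of angiogenic ligands and their co-receptors 22 of 26 were higher, 3 of them at p under 0.05 (2.7% of all genes). The 3 were the peptide ligand APLN (0.80; 0.30 to 1.30), the ephrin EFNA1 (0.42; 0.11 to 0.72) and the chemokine CXCL8 (0.92; 0.14 to 1.69). The median of these 26 was 0.15, and 0.26 without DHA oil replicate 1.

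Genes under NF-kB gave the highest median among the lists on signalling and stress. Of 30 targets, cytokines and chemokines 27 were tested and 25 were higher in fish oil, 9 at p under 0.05 (2.7% of all genes) and 0 lower. The median log2 fold change was 0.47 against 0.01 over all genes. Their groups did not overlap for 7 of 27, where 2.87% of all genes lay entirely higher. Members of a list share the same 7 libraries and are not independent of each other. CCL2 (ENSG00000108691), the chemokine that recruits monocytes, stood at 161, 238, 155 and 178 CPM in fish oil and at 113, 122 and 86.3 CPM in DHA oil. The lowest fish oil tumour was above the highest DHA oil tumour, and the log2 fold change was 0.78 (0.38 to 1.17; 0.79 without replicate 4). TNFAIP3 (ENSG00000118503), the A20 enzyme that shuts NF-kB signalling off and is itself induced by it, stood at 31.4, 34.9, 34.7 and 21.5 CPM in fish oil and 18.6, 20.7 and 19.7 CPM in DHA oil. Fish oil replicate 4 sat just above DHA oil and the other 3 well above it, so the log2 fold change went from 0.64 (0.25 to 1.02) to 0.78 (0.46 to 1.09) without that library. NFKBIA (ENSG00000100906), the inhibitor that holds NF-kB in the cytoplasm, stood at 95.3, 121, 123 and 93.0 CPM in fish oil and 92.0, 76.7 and 69.7 CPM in DHA oil, a log2 fold change of 0.44 (0.13 to 0.75). The cytokine IL32 differed by 0.51 (0.18 to 0.84) and CXCL8 overlapped between the groups, with 6.89, 16.1, 6.64 and 12.7 CPM in fish oil and 7.57, 4.89 and 4.64 CPM in DHA oil. Fish oil replicate 2 carried part of this: the mean log2 CPM of the list was 4.24 there and 3.66 to 3.76 in the other fish oil libraries, still above the 3.38 to 3.47 of DHA oil. The chow libraries, at 3.62, 3.59 and 4.17, were also all above DHA oil. Chow replicate 3 lay within the fish oil range and chow replicates 1 and 2 just under it, so DHA oil was the low group. Without fish oil replicate 2 the median was 0.28. Without fish oil replicates 2 and 4 it was 0.34, with 8 genes higher and 0 lower at p under 0.05. Over all 16052 genes of that fit 294 were higher and 293 lower.

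Immediate early genes, which cells switch on within minutes of a growth or stress signal, differed more clearly once fish oil replicate 4 was left out. With all libraries 27 of 32 were higher, 6 of them at p under 0.05 (2.7% of all genes), with a median of 0.25. Without replicate 4 there were 11 higher at p under 0.05 (2.46% of all genes), with a median of 0.34. The mean log2 CPM of the list was 4.99, 5.04 and 5.05 in fish oil replicates 1 to 3, 4.45 in replicate 4, and 4.56, 4.57 and 4.77 in DHA oil. FOS (ENSG00000170345), a subunit of the AP-1 factor, stood at 49.0, 43.7, 88.3 and 19.7 CPM in fish oil and 21.2, 20.9 and 25.4 CPM in DHA oil. Replicate 4 lay below all of DHA oil and the other 3 above it. Replicate 3 was the highest, and without it FOS was at 0.73. The log2 fold change was 1.15 (0.34 to 1.97) with all libraries and 1.42 (0.78 to 2.06) without replicate 4. PPP1R15A (ENSG00000087074) (GADD34), which restarts translation after stress, had the same shape, at 100, 91.4, 111 and 55.2 CPM in fish oil and 60.7, 63.1 and 65.1 CPM in DHA oil, and its log2 fold change was 0.51 (0.08 to 0.93) with and 0.68 (0.39 to 0.97) without replicate 4. SOCS3 (ENSG00000184557), the feedback inhibitor of cytokine signalling through STAT3, stood at 21.1, 27.0, 23.97 and 12.6 CPM in fish oil and 9.70, 11.7 and 14.9 CPM in DHA oil, with 0.81 (0.27 to 1.34) against 0.99 (0.56 to 1.43). The phosphatase DUSP1 went from 0.49 (0.06 to 0.92) to 0.62 (0.24 to 1.01). FOSL1, another AP-1 subunit, differed by 0.75 (0.19 to 1.30). In chow tumours FOS was at 21.4, 17.6 and 41.8 CPM.

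**Figure D2:**
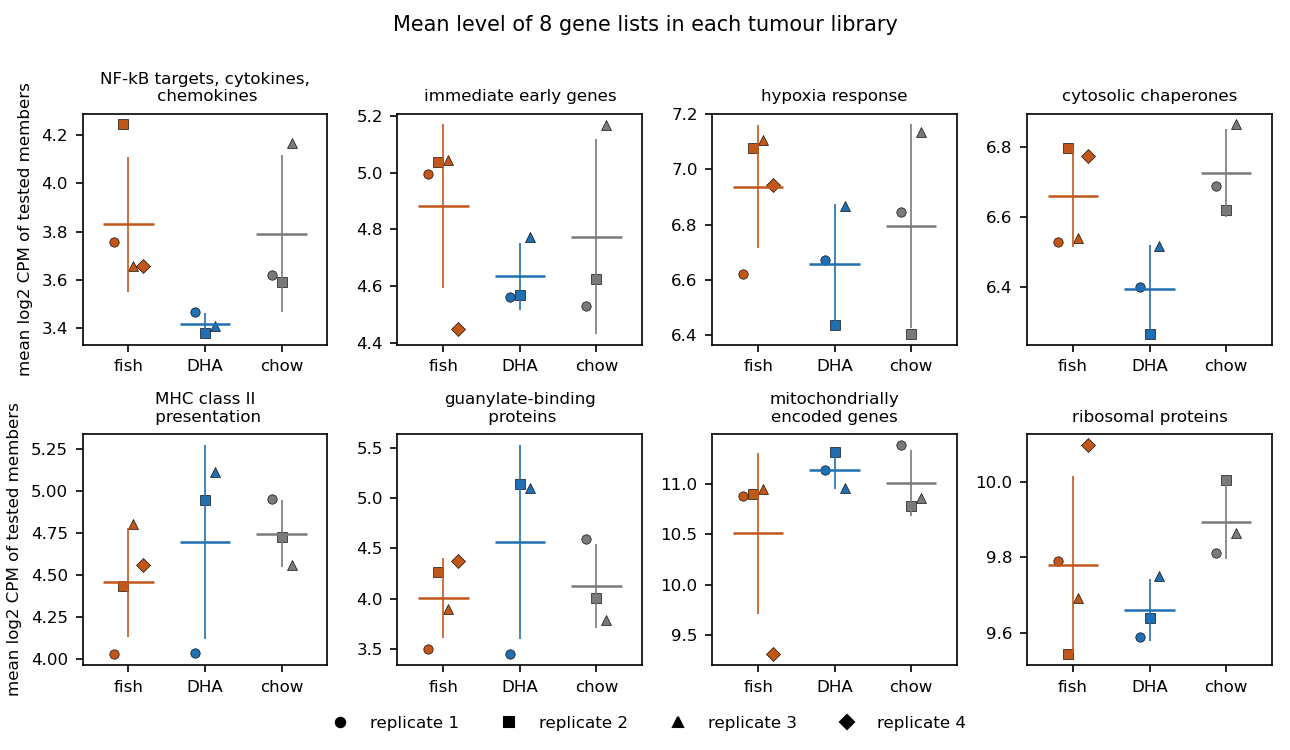
Mean log2 CPM (vertical axis) of the tested members of 8 gene lists in each library of the 3 diets; marker shape gives the replicate. For NF-kB targets all fish oil libraries are above all DHA oil libraries, for immediate early genes replicate 4 is below DHA oil, for mitochondrially encoded genes replicate 4 is at 9.305 against 10.88 to 11.32 in the other oil libraries, and for guanylate-binding proteins DHA oil replicates 2 and 3 are above all other oil libraries.

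Metallothioneins, small proteins that bind zinc and copper and rise with metal or oxidative stress, were listed only after their values had been seen. Of 10 listed genes 7 were tested and 6 were higher, 3 at p under 0.05, with a median of 0.32 (0.17 or 0.56 with DHA oil replicate 1 or 3 left out). MT1X (ENSG00000187193) stood at 25.6, 30.8, 25.3 and 32.8 CPM in fish oil, 14.9, 16.3 and 22.4 CPM in DHA oil and 18.1 to 19.7 CPM in chow. MT1E (ENSG00000169715) stood at 37.3, 33.8, 29.3 and 45.0 CPM in fish oil, 16.1, 22.6 and 26.7 CPM in DHA oil and 22.0 to 25.2 CPM in chow. Fish oil thus lay above both other diets in every library for this pair, with log2 fold changes over DHA oil of 0.68 (0.32 to 1.03) and 0.74 (0.35 to 1.13). MT1G, at lower counts, differed by 0.96 (0.29 to 1.62) and MT2A by 0.32 (-0.02 to 0.66). The family has near-identical copies, and the handling of reads that fit several genes is not given in the sources used here, so the split between members is uncertain. Other antioxidant genes were mostly level. Of 26 tested targets of NRF2 and genes of ferroptosis defence, 2 were higher at p under 0.05 (2.7% of all genes) and 0 lower, with a median of 0.09. The higher ones were TXN at 0.37 and the heme oxygenase HMOX1 at 0.59, or 0.35 without fish oil replicate 2. The cystine carrier SLC7A11 differed by -0.07 (-0.58 to 0.44), with a sign that turned when fish oil replicate 1 (0.123) or DHA oil replicate 1 (0.101) was left out.

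Cytosolic chaperones were higher in 23 of 24 genes, 7 at p under 0.05 (2.7% of all genes) and 0 lower, with a median of 0.31. Fish oil replicates 2 and 4 were the highest of the oil libraries, at a mean log2 CPM of 6.80 and 6.78. Fish oil replicates 1 and 3 were at 6.53 and 6.54 and DHA oil at 6.26 to 6.52. The chow libraries, at 6.69, 6.62 and 6.86, were all above DHA oil and above fish oil replicates 1 and 3, so DHA oil was the low group. HSPA8 (ENSG00000109971), the constant form of HSP70, stood at 1284, 1544, 1005 and 1964 CPM in fish oil and 1053, 954 and 1016 CPM in DHA oil. Replicate 3 fell among the DHA oil values, and replicate 4 was the highest. Its log2 fold change of 0.53 (0.13 to 0.92) became 0.34 without replicate 4 and 0.18 (-0.08 to 0.45) without both. The list had 1 gene at p under 0.05 and a median of 0.21 without replicate 4, and 0 genes and 0.13 without both, when 21 of 24 were still higher. The related gene HSPA1L (ENSG00000204390) kept a difference: it stood at 5.76, 10.6, 7.95 and 7.54 CPM in fish oil, 4.85, 2.84 and 4.00 CPM in DHA oil and 9.67 to 12.6 CPM in chow, so DHA oil was low against both other diets. HSPA1L had a log2 fold change of 1.05 (0.51 to 1.59), and 0.83 (0.24 to 1.43) without replicates 2 and 4. It shares long near-identical stretches with the inducible HSP70 genes, so its counts are uncertain too.

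Further genes high on the list by p came from no set fixed for these tumours. AQP1 (ENSG00000240583), a water channel, stood at 90.0, 183, 104.5 and 77.9 CPM in fish oil and 55.1, 47.9 and 76.5 CPM in DHA oil, a log2 fold change of 0.93 (0.41 to 1.45). Fish oil replicate 2 was the highest, and without it the value was 0.60, while replicate 4 was barely above DHA oil replicate 3. KCNJ15 (ENSG00000157551), an inward rectifier potassium channel, was 45.3 to 55.2 CPM in fish oil and 28.9 to 37.5 CPM in DHA oil, a log2 fold change of 0.62 (0.30 to 0.94). NR2C2AP (ENSG00000184162), a small protein that binds the nuclear receptor NR2C2, was the steadiest of the higher genes, at 28.8 to 29.7 CPM in fish oil, 21.0 to 21.9 CPM in DHA oil and 25.7 to 28.1 CPM in chow. DHA oil was thus the low group for this gene, by a log2 fold change of 0.45 (0.19 to 0.70). CHI3L2 (ENSG00000064886), a secreted chitinase-like protein, was at low levels (2.87 to 6.30 CPM in fish oil and 1.05 to 1.77 CPM in DHA oil), with a log2 fold change of 1.39 (0.63 to 2.16). The identifier ENSG00000236069 ranked among these genes too and is left unnamed.

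In the lower direction, GBP5 and IDO1, which interferon gamma induces, had the largest fold changes of the 12 genes named by smallest p, and 2 of the 3 DHA oil tumours made them. GBP5 (ENSG00000154451), a guanylate-binding protein, stood at 3.84, 7.84, 4.17 and 9.12 CPM in fish oil, at 4.14, 35.7 and 32.1 CPM in DHA oil and at 6.14 to 8.70 CPM in chow. DHA oil replicates 2 and 3 were well above every other tumour, and DHA oil replicate 1 was at the fish oil level, so the groups overlapped. The log2 fold change was -1.92 (-2.97 to -0.87) and -2.15 without fish oil replicate 4. Leaving out DHA oil replicate 1 instead gave -2.41, and GBP5 was then the 1 gene called by edgeR (adjusted p = 0.00923). IDO1 (ENSG00000131203), the enzyme that breaks down tryptophan and restrains T cells, stood at 0.641, 2.37, 0.782 and 3.38 CPM in fish oil and at 1.54, 9.97 and 9.90 CPM in DHA oil, the same pattern. Its log2 fold change was -1.93 (-3.14 to -0.72), and -2.40 (-3.74 to -1.07) without fish oil replicate 4.

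The same 2 tumours were high for class II antigen presentation. CD74 (ENSG00000019582), the invariant chain that escorts class II molecules, stood at 37.5, 67.5, 90.0 and 87.1 CPM in fish oil, 42.6, 192 and 255 CPM in DHA oil and 77.6 to 117 CPM in chow. DHA oil replicate 1 was again among the fish oil values. HLA-DRA (ENSG00000204287), a class II chain, stood at 23.1, 40.9, 36.1 and 83.2 CPM in fish oil and 26.4, 117 and 141 CPM in DHA oil. CIITA (ENSG00000179583), the regulator that switches class II genes on, stood at 1.28, 2.27, 3.00 and 2.03 CPM in fish oil and 1.42, 7.33 and 8.22 CPM in DHA oil. In all 3 genes only DHA oil replicates 2 and 3 exceeded every fish oil tumour. Log2 fold changes were -1.21 (-2.09 to -0.33) for CD74, -1.39 (-2.40 to -0.38) for CIITA and -1.04 (-1.98 to -0.10) for HLA-DRA (-0.64 without DHA oil replicate 3), which became -1.50 (-2.40 to -0.59) without fish oil replicate 4. NLRC5 (ENSG00000140853), the counterpart of CIITA for class I genes, stood at 20.04 to 28.3 CPM in fish oil and at 22.7, 59.5 and 46.8 CPM in DHA oil, a log2 fold change of -0.84 (-1.40 to -0.28).

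**Figure D3:**
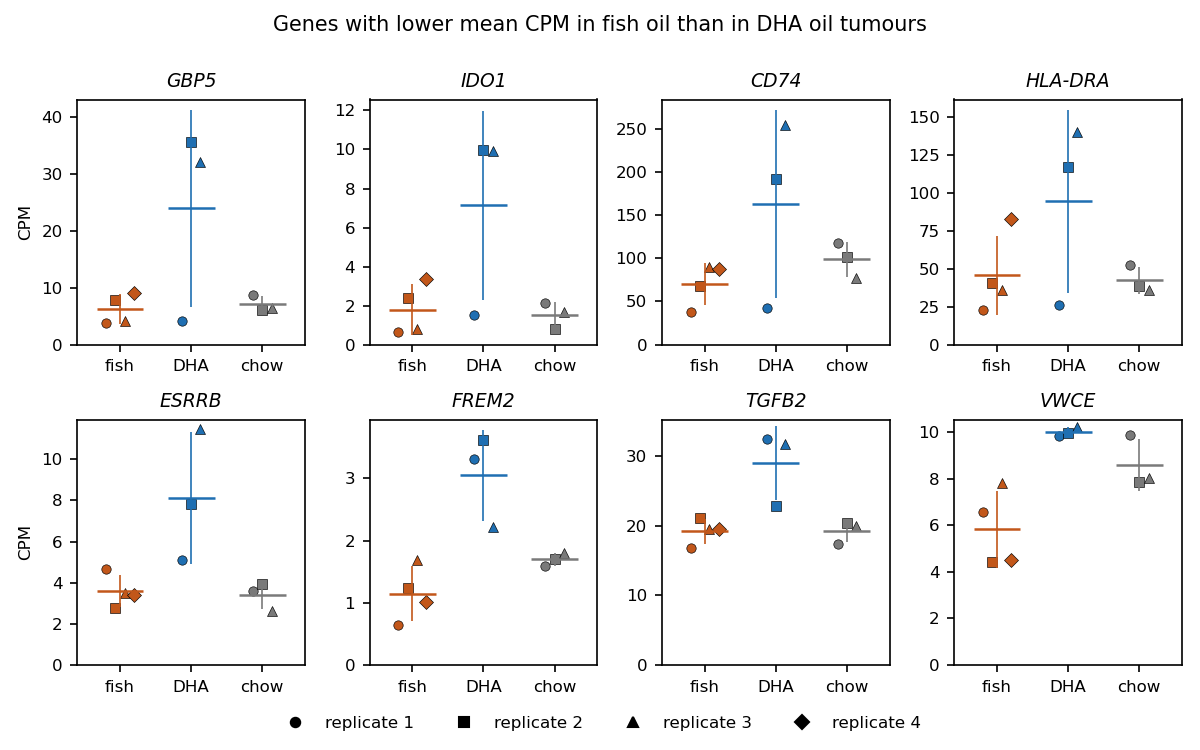
Level in CPM (vertical axis, from 0) of 8 genes with small p in the lower direction, in each library of the 3 diets; marker shape gives the replicate, the line is the group mean and the bar 1 SD. GBP5, IDO1, CD74 and HLA-DRA are high in DHA oil replicates 2 and 3 and at the fish oil level in DHA oil replicate 1, whereas for ESRRB, FREM2, TGFB2 and VWCE every fish oil library lies below every DHA oil library.

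The wider interferon list did not lean as a whole. Among its 39 genes of interferon response and antigen presentation 16 were higher and 23 lower in fish oil, 2 lower at p under 0.05 (NLRC5 and the peptide transporter TAP2), with a median of -0.04. Without fish oil replicate 4, 30 of 39 were lower and the median was -0.16. The sign of that median depended on single tumours, at 0.05 with fish oil replicate 3 left out, 0.13 with DHA oil replicate 2 left out and -0.26 with DHA oil replicate 1 left out. Narrower lists were drawn up after these values had been seen and only describe them. Of 6 tested guanylate-binding proteins 5 were lower, 3 at p under 0.05 (GBP5, GBP4 and GBP2), with a median of -0.96, and of 17 tested class II genes 11 were lower, 6 at p under 0.05 and 0 higher, with a median of -0.15. Of 16 tested genes of interferon gamma signalling and its classical targets 10 were lower, 3 at p under 0.05 (IDO1, BATF2 and WARS1), and 1 was higher, IRF8, with a median of -0.24 (-0.04 and -0.45 with DHA oil replicate 2 or 1 left out, and -0.11 to -0.38 leaving out fish oil replicate 1, 3 or 4 or DHA oil replicate 3). The receptor chain IFNGR1 and the kinases JAK1 and JAK2 had intervals that spanned 0, at 0.27 (-0.21 to 0.75), 0.01 (-0.23 to 0.24) and 0.04 (-0.28 to 0.35). CXCL9 (ENSG00000138755), a chemokine induced by interferon gamma, stood at 0.961, 3.51, 1.95 and 4.62 CPM in fish oil and 0.709, 9.09 and 8.64 CPM in DHA oil, with an interval that spanned 0 (-1.12; -2.44 to 0.20). Human IFNG itself was at 0 to 0.103 CPM in fish oil and 0.118 to 0.316 CPM in DHA oil, too low to test. Class II genes did not all go together: HLA-DQA1 and HLA-DQB1, at 0.18 (-0.73 to 1.09) and 0.06 (-0.39 to 0.50), were not lower. Class II chains are near-identical among themselves and vary between people, which can misplace reads. Dropping DHA oil replicate 1 took the median of the class II list to -0.525, and dropping DHA oil replicate 2 or 3 took it to -0.10 and -0.06. For the guanylate-binding proteins the same steps gave -1.12, -0.64 and -0.73.

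Leukocyte markers were read beside both the inflammatory and the class II genes, because human counts can include host reads close enough in sequence to align. In bulk tissue, fewer cells of a type and less RNA per cell cannot be told apart. Of 19 leukocyte markers 13 were tested: 11 were higher in fish oil, 4 at p under 0.05, and 1 was lower at that level, CD74, with a median of 0.55, and 0.23 without fish oil replicate 2. Their summed level was 102, 192, 176 and 165 CPM in fish oil and 95.1, 254 and 326 CPM in DHA oil, of which CD74 was a large part. The pan-leukocyte gene PTPRC stood at 3.52, 8.15, 5.99 and 4.73 CPM in fish oil and 2.13, 3.72 and 4.64 CPM in DHA oil, and S100A8, of neutrophils, was at 0 in all 7. Within DHA oil, replicates 2 and 3 were above replicate 1 for PTPRC as for HLA-DRA and CD74. Within fish oil, replicate 2 was the highest for PTPRC and replicate 4 for HLA-DRA. The macrophage genes AIF1 (0.84; 0.20 to 1.48), ADGRE1 (0.57; 0.13 to 1.01) and CD68 (0.65; 0.07 to 1.22) were higher in fish oil, as was LCP1, the actin bundler of blood cells (0.89; 0.37 to 1.40). These levels are low, and their part in the differences of CCL2, the NF-kB list and the class II genes was not tested.

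**Figure D4:**
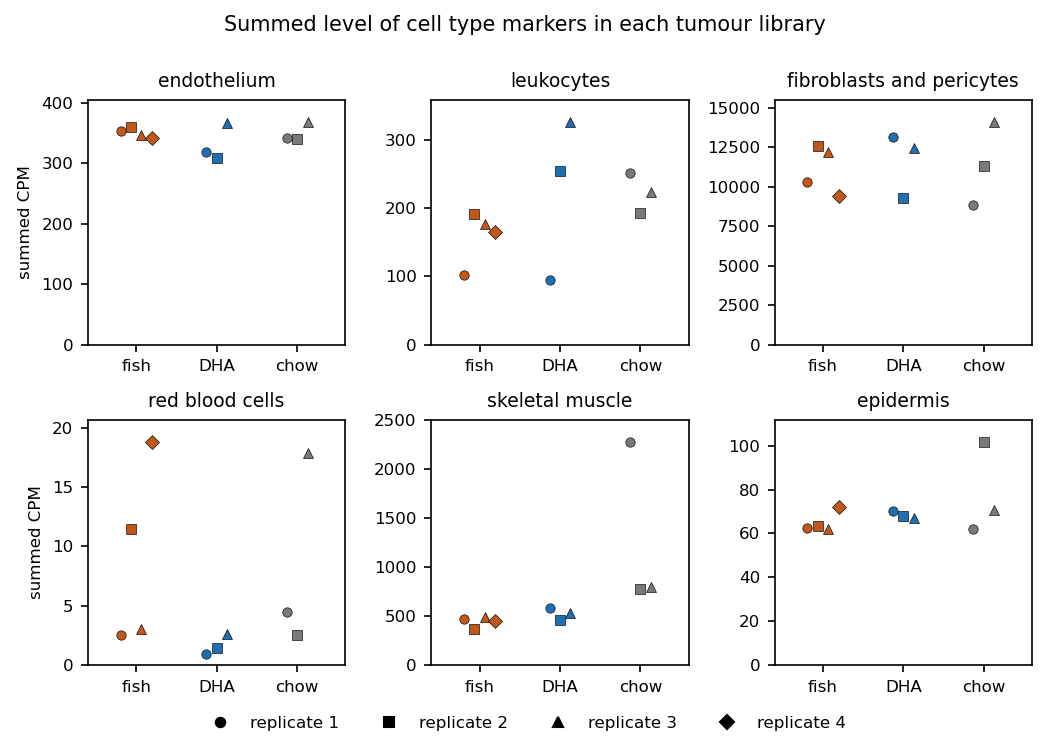
Summed CPM (vertical axis, from 0) of the listed markers of 6 cell types in each library of the 3 diets, with marker shape for the replicate. These sums do not separate host reads from the graft's own expression. Red blood cell markers are highest among the oil libraries in fish oil replicates 2 and 4 (11.5 and 18.8 CPM), and skeletal muscle markers reach at most 586 CPM in an oil library. Leukocyte sums are highest in DHA oil replicates 2 and 3, where CD74 is a large part. The mean log2 CPM of the tested leukocyte markers is instead highest in fish oil replicates 2 and 3, at 3.03 and 2.78. It is 2.39 and 2.64 in DHA oil replicates 2 and 3.

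For PECAM1, CDH5 and HBD, fish oil replicates 2 and 4 were the highest of their group. PECAM1 (ENSG00000261371), an adhesion molecule of vessel walls, stood at 12.5, 48.2, 9.12 and 25.7 CPM in fish oil and 6.74, 8.41 and 9.69 CPM in DHA oil. Replicates 2 and 4 made the difference, since the log2 fold change of 1.54 (0.57 to 2.51) was 0.37 (-0.26 to 1.01) without them. CDH5, the cadherin of endothelium, went from 1.07 to -0.01 in the same way. Of 16 endothelial markers 11 were higher, 4 at p under 0.05 with all libraries and 0 without that pair, when 11 were still higher (median 0.195, 0.39 without replicate 4 and 0.14 without the pair). Over the list replicate 4 was not high: the summed level was 342 to 360 CPM in fish oil and 309 to 366 CPM in DHA oil. HBD (ENSG00000223609), the delta chain of haemoglobin, stood at 0.480, 4.03, 1.04 and 7.43 CPM in fish oil and 0.196 to 0.355 CPM in DHA oil. It had the highest fold change of all genes tested, 3.50 (1.54 to 5.46), and 1.41 (-0.57 to 3.40) without replicates 2 and 4. Globin copies are alike, and only 2 of 8 red cell markers could be tested. HILPDA (0.82; 0.36 to 1.29), DEPP1 (1.44; 0.68 to 2.20), PLIN2 (0.77; 0.20 to 1.33), CCL2 (0.56; 0.18 to 0.94), TNFAIP3 (0.75; 0.40 to 1.09) and FOS (1.62; 0.98 to 2.25) kept their direction without those 2 tumours.

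For other lower genes such as ESRRB and FREM2, all 3 DHA oil tumours were above all 4 fish oil tumours. ESRRB (ENSG00000119715), an orphan nuclear receptor, stood at 4.64, 2.79, 3.52 and 3.38 CPM in fish oil and 5.08, 7.82 and 11.5 CPM in DHA oil, a log2 fold change of -1.20 (-1.81 to -0.59), and -0.87 without DHA oil replicate 3, the highest tumour. Chow tumours, at 2.63 to 3.92 CPM, lay with fish oil. FREM2 (ENSG00000150893), an extracellular matrix protein of basement membranes, stood at 0.641, 1.24, 1.69 and 1.01 CPM in fish oil and 3.31, 3.62 and 2.21 CPM in DHA oil, with -1.38 (-2.10 to -0.67). TGFB2 (ENSG00000092969), a growth factor of the TGF-beta family, stood at 16.8, 21.2, 19.5 and 19.5 CPM in fish oil, 32.5, 22.9 and 31.7 CPM in DHA oil and 17.4 to 20.4 CPM in chow, with -0.59 (-0.92 to -0.26). For ESRRB, FREM2 and TGFB2 the DHA oil tumours were the ones apart, above every tumour of both other diets. For VWCE (ENSG00000167992), a secreted protein with von Willebrand C domains (4.44 to 7.82 CPM in fish oil, 9.81 to 10.2 CPM in DHA oil and 7.84 to 9.87 CPM in chow; -0.79; -1.26 to -0.32), and B3GALT6 (ENSG00000176022), a galactosyltransferase of proteoglycan linkers (26.1 to 36.2 CPM, 42.2 to 47.4 CPM and 37.6 to 43.4 CPM; -0.48; -0.76 to -0.20), fish oil was the low group. ITGA11 (ENSG00000137809), the alpha 11 chain of a collagen-binding integrin, was 18.2 to 23.1 CPM in fish oil and 22.9 to 32.9 CPM in DHA oil, an overlap, with -0.55 (-0.88 to -0.22). The remaining named lower genes were LPAR2 (ENSG00000064547), a receptor for lysophosphatidic acid (-0.60; -0.996 to -0.21), FLRT1 (ENSG00000126500), a leucine-rich membrane protein (-1.11; -1.81 to -0.41), PIP5KL1 (ENSG00000167103), related to lipid kinases (-0.63; -1.03 to -0.22), and FAM229A (ENSG00000225828) (-0.79; -1.29 to -0.30). Leaving out fish oil replicates 2 and 4 left these 4 with log2 fold changes of -0.76 to -0.31 and intervals that included 0. ENSG00000258301 ranked among them and is left unnamed.

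Leaving out fish oil replicate 4 brought other lower genes forward. KCNU1 (ENSG00000215262), a potassium channel, stood at 1.92, 1.76, 1.56 and 6.31 CPM in fish oil and 4.97, 4.497 and 4.32 CPM in DHA oil. Replicate 4 was the highest of all 7 and the other fish oil tumours the lowest, and the log2 fold change was -0.64 (-1.55 to 0.26) with it and -1.39 (-2.07 to -0.71) without it. GSTM5 (ENSG00000134201), a glutathione transferase, behaved alike (14.1, 14.1, 16.2 and 27.6 CPM against 25.0, 22.1 and 19.2 CPM), with -0.29 (-0.76 to 0.18) and -0.58 (-0.92 to -0.23). The glutamate receptor subunit GRIK1 (-0.54 without DHA oil replicate 1) went from -0.86 to -1.27 (-1.98 to -0.56) and the netrin receptor UNC5C from -0.45 to -0.73 (-1.15 to -0.30).

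Genes of the mitochondrial genome, which encode core subunits of the respiratory chain, were lower in fish oil for 13 of 13, with a median log2 fold change of -0.49. Replicate 4 held a large part of this and 1 gene reached p under 0.05. In chow replicates 1 to 3 these genes took 7.046%, 4.633% and 4.794% of the counts. That range held the share of every oil library except fish oil replicate 4. MT-ND1 (ENSG00000198888), a subunit of complex I, stood at 2719, 1992, 2610 and 805 CPM in fish oil and 4228, 3788 and 2874 CPM in DHA oil. Every fish oil tumour was lower, replicate 4 by far, and the log2 fold change was -0.84 (-1.49 to -0.19) with it and -0.57 (-0.95 to -0.19) without it. The median of the 13 was -0.23 without replicate 4, with 2 lower at p under 0.05, and groups did not overlap for 6 of 13 with all libraries (2.08% of all genes). The nuclear genes of ribosomal proteins moved the other way in replicate 4: their mean log2 CPM was 10.1 there, 9.54 to 9.79 in the other fish oil libraries and 9.59 to 9.75 in DHA oil. Of 50 ribosomal protein genes 45 were higher, 0 at p under 0.05, with a median of 0.15. The median was 0.03 without replicate 4, with 29 higher, and 0.09 without replicates 2 and 4, with 46 higher. Replicate 4 was the highest oil library for ribosomal protein genes, replicate 2 the lowest, and replicate 4 was also the highest for mitosis genes. Mitosis genes were higher for 25 of 32 (2 at p under 0.05; median 0.13, and 0.03 without replicate 4), with the cyclin CCNB1 at 119, 118, 94.5 and 191 CPM in fish oil and 88.8, 109 and 94.7 CPM in DHA oil. DNA replication genes had a median of 0.09, 0.05 without replicate 4 and 0.19 without DHA oil replicate 2. RNA quality of single libraries is not in the labels, so its part was not tested.

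**Figure D5:**
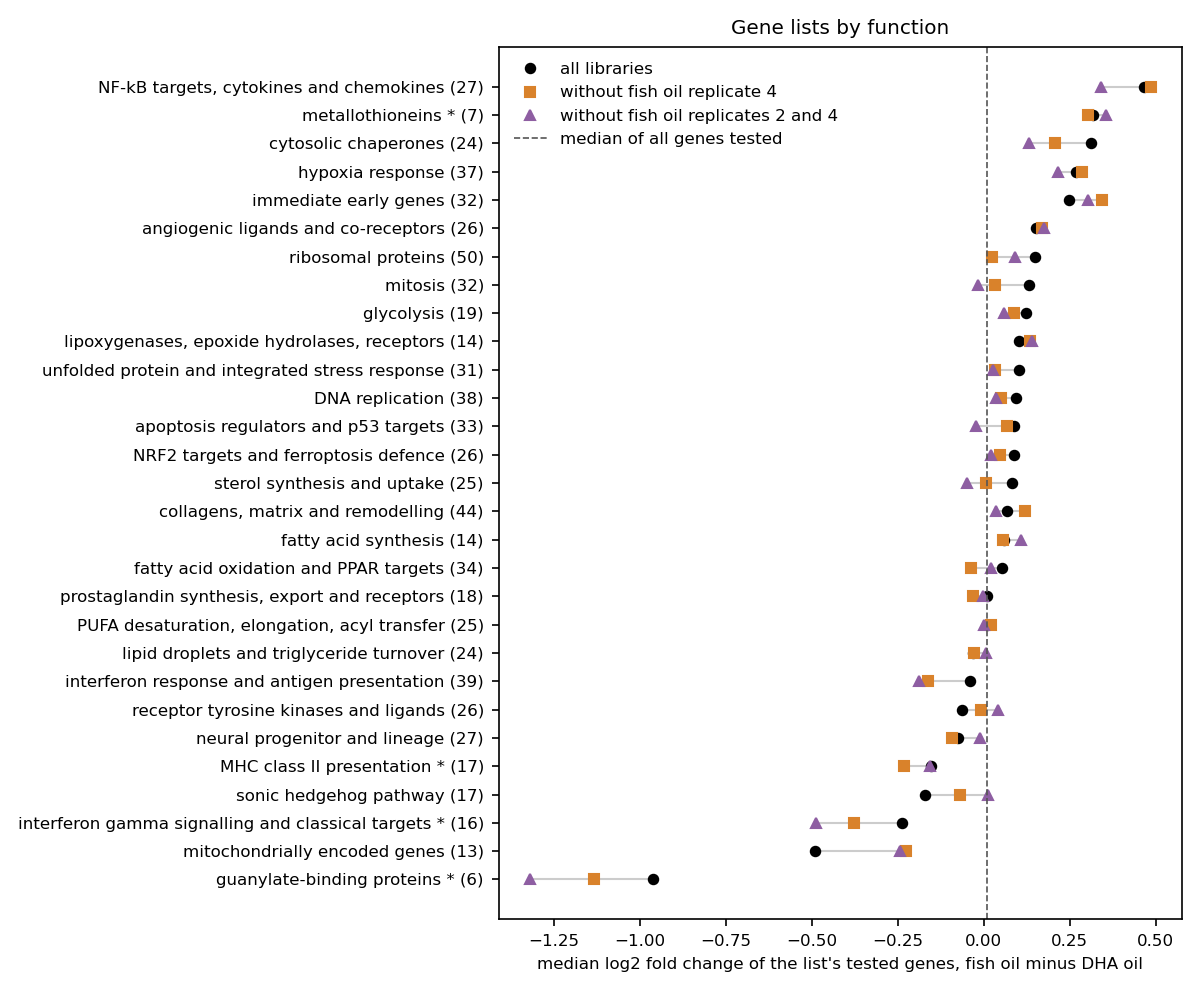
Median log2 fold change, fish oil over DHA oil (horizontal axis), of the tested members of 29 gene lists (number tested in brackets): circles for all libraries, squares without fish oil replicate 4, triangles without fish oil replicates 2 and 4. The dashed line is the median of all genes, asterisks mark lists drawn up after values were seen, and NF-kB targets, immediate early genes, hypoxia genes and chaperones have medians above 0 in all 3 settings, the chaperones at 0.311, 0.207 and 0.133, and mitosis genes at 0.132, 0.032 and -0.017.

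The enzymes and sensors through which these fatty acids are handled differed little. Among 25 tested genes of polyunsaturated fatty acid desaturation, elongation and acyl transfer 13 were higher and 12 lower, 0 at p under 0.05, with a median of 0.01. FADS2 (ENSG00000134824), the delta-6 desaturase, stood at 175 to 204 CPM in fish oil and 170 to 197 CPM in DHA oil, a log2 fold change of 0.04 whose interval (-0.23 to 0.31) leaves room for differences up to that size. FADS1, the delta-5 desaturase, differed by 0.24 (-0.06 to 0.54). Fatty acid oxidation and PPAR targets had 22 of 34 higher, 0 at p under 0.05 and a median of 0.05 (-0.04 without replicate 4). CPT1A, the gate for fatty acids into mitochondria, differed by 0.27 (-0.01 to 0.54), the PPAR target ANGPTL4 by 0.38 (-0.17 to 0.93; 0.107 without DHA oil replicate 2 and 0.578 with DHA oil replicate 1 left out), and PDK4 by -0.33 (-1.25 to 0.59), where DHA oil replicate 1 stood at 25.8 CPM and the other DHA oil tumours at 7.33 and 6.43 CPM, and without that tumour PDK4 was at 0.60, in the other direction. FFAR4, the cell surface receptor for omega-3 fatty acids, was at 0 in all 7 libraries.

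Fatty acid synthesis gave 0 of 14 genes at p under 0.05 and a median of 0.06, with the stearoyl-CoA desaturase SCD at 0.17 (-0.12 to 0.46). Among genes of sterol synthesis and uptake, the enzymes TM7SF2 (-0.42; -0.74 to -0.11), MVK (-0.31; -0.62 to -0.01) and MVD (-0.42; -0.84 to -0.01) were lower in fish oil, and HMGCS1 differed by 0.16 (-0.20 to 0.53). Over the 25 tested members 15 were higher and 10 lower, with a median of 0.08 that was 0.22 without fish oil replicate 1 and -0.05 without fish oil replicates 2 and 4.

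For prostaglandins the 18 tested genes were even, 9 higher and 9 lower, with a median of 0.01 (0.12 without DHA oil replicate 3) and 2 higher at p under 0.05. PTGS2 (ENSG00000073756), the inducible cyclooxygenase COX-2 and a target of NF-kB, stood at 19.1, 43.6, 45.3 and 38.7 CPM in fish oil, 22.4, 27.1 and 20.8 CPM in DHA oil and 22.9 to 51.6 CPM in chow. Fish oil replicate 1 was the lowest of the 7 and the other 3 the highest, with 0.65 (0.04 to 1.27), and 0.63 (-0.04 to 1.30) without replicate 4. The other was CBR1, a carbonyl reductase that acts on prostaglandin E2, at 60.5 to 67.1 CPM in fish oil and 48.1 to 52.1 CPM in DHA oil (0.32; 0.09 to 0.55). PTGES, the inducible prostaglandin E synthase, differed by -0.24 (-0.80 to 0.32). Of 25 lipoxygenase, epoxide hydrolase and mediator receptor genes 14 were tested, 11 higher and 3 lower, with a median of 0.10 and a highest log2 fold change of 0.98. At p under 0.05, 1 was higher and 1 lower, the latter LTB4R, a leukotriene B4 receptor (-0.51; -0.95 to -0.08).

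With all libraries, 0 hedgehog and 0 neural lineage genes were at p under 0.05. Without replicate 4 there was 1 higher hedgehog gene, and 1 higher and 1 lower neural gene. Without replicates 2 and 4 there was 1 lower hedgehog gene, and 1 higher and 2 lower neural genes (294 higher and 293 lower of all 16052 genes). Hedgehog pathway genes had 7 higher and 10 lower of 17 tested, with a median of -0.17 that was -0.07 without replicate 4, 0.01 without replicates 2 and 4, and -0.03 with DHA oil replicate 1 left out, and GLI3, a transcription factor of the pathway, differed by -0.30 (-0.63 to 0.04). Neural progenitor and lineage genes had a median of -0.07. Apoptosis regulators and p53 targets had 2 of 33 higher at p under 0.05 (2.7% of all genes) and a median of 0.09. The 2 were the death receptors TNFRSF10A (0.61; 0.01 to 1.21) and TNFRSF10B (0.31; 0.01 to 0.61). The unfolded protein and integrated stress response had 23 of 31 higher, 2 of them at p under 0.05 (2.7% of all genes), and a median of 0.10. The 2 were PPP1R15A and the serine enzyme PSPH (0.30; 0.01 to 0.58). CHAC1, a target of the stress factor ATF4, was at -0.15 (-0.74 to 0.43), or at 0.032 and 0.096 with fish oil replicate 2 or DHA oil replicate 3 left out, and 0.036 without replicates 2 and 4. In the matrix list 25 of 44 were higher, 2 of them at p under 0.05 (2.7% of all genes), the collagenase MMP13 (0.87; 0.20 to 1.55) and the urokinase receptor PLAUR (0.61; 0.06 to 1.17), with a median of 0.07 (-0.03 without fish oil replicate 2). CRYAB, a small heat shock protein, differed between the oils by 0.01 (-0.51 to 0.54).

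Skeletal muscle, adipocyte and skin markers were read as signs of other host tissue at the edge of the graft. Of 23 tested muscle markers 19 were lower in fish oil, 2 at p under 0.05 and 0 higher, with a median of -0.83, and their summed level was 369 to 488 CPM in fish oil and 456 to 586 CPM in DHA oil. MYH2 (ENSG00000125414), a fast myosin, stood at 0.320, 0.103, 2.61 and 0.563 CPM in fish oil and 12.1, 5.08 and 0.211 CPM in DHA oil. MYH7 (ENSG00000092054), the slow myosin, stood at 0.413 to 0.676 CPM in fish oil and 3.31, 5.67 and 0.421 CPM in DHA oil. DHA oil replicates 1 and 2 were high and replicate 3 was among the fish oil values, with log2 fold changes of -2.69 (-4.67 to -0.71) for MYH2 and -2.47 (-4.12 to -0.83) for MYH7. The muscle median was -0.25 with DHA oil replicate 1 left out, -0.43 with DHA oil replicate 2 left out and -0.49 with fish oil replicate 2 left out. Fibroblast and pericyte markers had 12 of 13 higher, 2 at p under 0.05 (DPT at 0.71 and ACTA2 at 0.51). Their summed levels were 9424 to 12570 CPM in fish oil and 9293 to 13160 CPM in DHA oil, without separating host reads from the graft's own expression. Of 10 adipocyte and 10 epidermal markers 5 each were tested with 0 at p under 0.05, and RETN of fat and FLG of skin were at 0 in all 7 libraries.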

How the data were processed

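Bulk poly(A) RNA was measured in 10 tumour libraries (stranded kit, single 75 bp reads, per the labels' protocols). The deposited values are raw counts of reads per human gene, made with STAR, GRCh38 and HTSeq 0.9.0 per the submitters' processing notes. Not given in the sources used here are the annotation release, the strand setting, how shared reads were counted, and whether host reads were removed. The organism label is mouse.

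The table pairs no names with its Ensembl identifiers and the reference tables at hand are of mouse genes, so names come from general knowledge of human identifiers and identifiers are printed beside the main ones. All 806 identifiers written for the lists, and 122 written later, are in the table, where 8.67% would be by chance. This shows that they exist, not that each name is right.

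Genes were filtered with filterByExpr (minimum count 10), TMM-scaled and tested in R 4.3.3 with edgeR 4.0.16 (quasi-likelihood F test, 1 fit of all 10 libraries, Benjamini-Hochberg threshold 0.05). Intervals are 95%. Totals of 6187116 to 10035702 counts and a common biological coefficient of variation of 0.1631 set the precision. The test was checked on simulated data. Members, gene lists and tests were chosen with earlier results of these data known, and 4 lists after seeing values of this comparison. Genes were named, at a mean log2 CPM (prior count 2) of at least 1, as the 12 with the smallest p per direction, 5 more per direction without fish oil replicate 4, up to 4 per list, and a set of lipid, hypoxia and stress genes; 1 per direction had no sure name. PTPRC, MXI1, HLA and interferon genes outside that rule were named after their values were seen. Alternatives were other filters and scalings, DESeq2 1.42.0, limma-voom (limma 3.58.1), the oil libraries alone, the replicate number as a block, and libraries left out. Library pairs of a group differed beyond sampling noise (chi-square per degree of freedom 6.429 or more). Some items are not reported here.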

Additional observations from a re-analysis of the deposited data

Results flagged for a closer look

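Fish oil, with 4 libraries, was the group in which a library far from the rest could be looked for. Over 69 measures (levels of named genes and means of gene lists) 7 had an end library whose gap to the next was large for a group of 4 (Dixon's ratio of gap to range past its 95% critical value, which chance passes in about 1 of 20). Replicate 2 was high for PLIN2, the lipid droplet coat protein, at 51.81 CPM against 31.54 to 33.66 CPM in the other fish oil libraries, and for CHI3L2 at 6.296 CPM against 2.866 to 3.152 CPM. The NF-kB list was also high there, with a mean log2 CPM of 4.244 against 3.658 to 3.758. Replicate 4 was high for KCNU1 at 6.305 CPM against 1.563 to 1.921 CPM and for GSTM5 at 27.58 CPM against 14.09 to 16.15 CPM. KCNU1 and GSTM5 were named from the fit without replicate 4. That choice favoured genes with such a gap, so the rate of 1 of 20 does not apply to them. Replicate 4 was low for immediate early genes, with a mean log2 CPM of 4.449 against 4.994 to 5.045, and for the mitochondrially encoded genes, with 9.305 against 10.88 to 10.95. For PLIN2, CHI3L2 and the NF-kB list the remaining fish oil libraries still lay above all DHA oil libraries.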

How the results depend on the processing

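The width of the intervals in the report (for HILPDA 0.59 to 1.46) is the precision that this depth and these tumours gave. Unfiltered, edgeR called 14 genes (8 higher, HILPDA, DEPP1, CCL2, PLIN2, AQP1, FOS, HBD and PECAM1, and 6 lower, CD74, GBP5, GBP4, IDO1, MYH2 and MYH7), with 1412 at an unadjusted p under 0.05, and 96 genes (65 higher and 31 lower) with fish oil replicate 4 also left out. DESeq2 called 1, HILPDA. The count was 0 with the strict filter, both other scalings, limma-voom, the oil libraries alone, and without fish oil replicates 2 and 4. Leaving out 1 library gave 0 to 1 genes, the 1 being GBP5 with DHA oil replicate 1 left out. The genes at an unadjusted p under 0.05 then numbered 538 to 1758, the fewest when DHA oil replicate 2 was left out and the most without fish oil replicate 1; leaving out fish oil replicate 3 gave 1266. No pairing by replicate number was seen. Same-numbered libraries deviated together at r = -0.1348, 0.0606 and 0.0979, and other pairs at -0.1393 to 0.1345. So few pairs cannot exclude a pairing. With the replicate block 0 genes were called and 590 had an unadjusted p under 0.05. Only fish oil has a replicate 4, so the block fit gives that library a level of its own and in effect leaves it out.

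Across single libraries left out, median log2 fold changes ran from 0.006 to 0.221 for sterol genes (without fish oil replicates 4 and 1), -0.02 to 0.134 for lipoxygenase and mediator genes, 0.048 to 0.17 for NRF2 targets, 0.012 to 0.147 for apoptosis genes, 0.107 to 0.263 for angiogenic ligands, -1.12 to -0.253 for muscle markers (without DHA oil replicates 3 and 1), 0.07 to 0.55 for adipocyte markers and -0.625 to 0.022 for epidermal markers. Without fish oil replicates 2 and 4 together the medians were 0.133 for chaperones, -0.022 for apoptosis genes, 0.012 for hedgehog genes, -0.025 for fibroblast markers and 1.047 for red blood cell markers. No filter gave -0.152 for epidermal and 1.614 for red blood cell markers, and the replicate block gave -0.2 for epidermal markers. Apart from the block fit, which in effect leaves out fish oil replicate 4, the cause was not tested. The replicate block took KCNU1 from -0.64 to -1.40, near its -1.39 without that library. PDK4 was at 0.596 without DHA oil replicate 1. In all, 990 recomputed values of single genes and 665 list medians moved by less than the spread between replicates or stayed on their side of the threshold.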
